A study of Homo sapiens with 20 samples.

Results

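Polyamine synthesis and its control were followed through 8 genes, ODC1, AMD1, SRM, SMS, SAT1, OAZ1, OAZ2 and AZIN1, taken by symbol out of the 45372 gene symbols that both expression tables held. All 8 were found and all 8 passed the filter on low values. The genes were chosen from measured values of these libraries, the fold changes after HUWE1 knockdown in each set, so their levels and differences are given below as a description, with no p-value, and where a gene is said to be called this says only on which side of the threshold its value lay. HUWE1 encodes a large HECT-type ubiquitin ligase, and the study asked how transcription changes when it is depleted. RNA was sequenced from 20 libraries of HEK293T, an established line of human embryonic kidney origin that expresses SV40 large T antigen. HUWE1 siRNA was given to 4 libraries without a set number, called set 1 here, to 4 libraries of set 2 and to 4 libraries of set 3. Non-targeting (NT) siRNA was given to 4 libraries of set 1 and to 4 libraries that sets 2 and 3 share, so the comparisons of sets 2 and 3 share their controls and are not independent. Each group of 4 is described as biological replicates, all groups are the same cell line, and the p-values below measure the spread between these libraries. What sets the siRNA of sets 1, 2 and 3 apart, the time after transfection and the siRNA sequences were not given in the sources used here.

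Polyamines are small positively charged molecules that bind nucleic acids and are needed for cell growth. Ornithine decarboxylase, encoded by ODC1, makes putrescine, and adenosylmethionine decarboxylase, encoded by AMD1, makes the aminopropyl donor. Spermidine synthase (SRM) joins a donor group to putrescine to give spermidine, and spermine synthase (SMS) adds a further one to give spermine. SAT1 acetylates spermidine and spermine for export or for back-conversion. The antizymes OAZ1 and OAZ2 bind ODC1 protein, send it to the proteasome without ubiquitin and block polyamine uptake, and AZIN1, an antizyme inhibitor that resembles ODC1 but has no decarboxylase activity, binds antizymes and frees ODC1. Much of this control acts on translation and on protein stability, which RNA levels do not measure.

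Sequences of these genes are given here as a description, and their part in how the transcripts are made was not tested. ODC1 and SRM are known as target genes of MYC, a transcription factor that with its partner MAX binds the E-box, CACGTG, a motif that reads the same on both strands and was searched without any other motif. Promoter windows of 250 bases before to 50 bases after a transcription start were taken from RefSeq on GRCh38.p14. Of the 8 symbols, 7 matched, with 10 windows in all, of which 2 belonged to ODC1 and 3 to AMD1. The motif was present once in the SRM window, with its first base at position -199, and 2 times in a window of ODC1, with first bases at positions -29 and 6, where position 1 is the first transcribed base. It was in no window of AMD1, SMS, SAT1, OAZ1 or OAZ2, nor in the other ODC1 window, whose start lies 315 bases away. Among all 35116 windows of the same length, 2548 (7.26%) held it. A match is a description of letters in a window and not a measured binding site. Both windows are on the minus strand and are written 5′ to 3′ with the motif in capitals, SRM from chr1:11059969-11060268 and ODC1 from chr2:10447963-10448262.
SRM: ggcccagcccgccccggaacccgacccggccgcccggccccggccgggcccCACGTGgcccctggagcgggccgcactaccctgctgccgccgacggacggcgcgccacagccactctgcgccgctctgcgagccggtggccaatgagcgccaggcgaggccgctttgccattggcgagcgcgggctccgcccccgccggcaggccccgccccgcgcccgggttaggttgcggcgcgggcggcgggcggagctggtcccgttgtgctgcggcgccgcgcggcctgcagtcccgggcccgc
ODC1: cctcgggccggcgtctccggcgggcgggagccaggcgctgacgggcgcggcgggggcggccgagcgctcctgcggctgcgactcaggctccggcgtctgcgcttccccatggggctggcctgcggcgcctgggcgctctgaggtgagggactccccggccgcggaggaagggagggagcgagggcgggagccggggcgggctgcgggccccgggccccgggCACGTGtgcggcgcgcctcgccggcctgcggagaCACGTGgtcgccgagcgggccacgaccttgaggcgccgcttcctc

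The antizyme mRNAs are read with a shift of frame: the ribosome reaches a stop codon early in the coding sequence and, when polyamines are high, slips forward by 1 base and goes on. Its site is shown because the level of OAZ1 or OAZ2 RNA is for this reason not a level of antizyme protein. In the transcripts of GENCODE release 29 (GRCh38), the skipped base is at chromosome 19, position 2271443 on the plus strand, for OAZ1 and at chromosome 15, position 64691515 on the minus strand, for OAZ2. The lines show 51 bases of each transcript around it, 5′ to 3′, with the last codon of the first frame and the stop codon in capitals. The 2 stretches were identical at 44 of 51 positions (86.3%).
OAZ1: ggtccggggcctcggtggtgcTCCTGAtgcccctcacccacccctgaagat
OAZ2: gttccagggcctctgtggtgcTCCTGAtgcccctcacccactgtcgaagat

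Values are TPM, an abundance scaled to transcript length and to the sum of the library, so levels of different genes can be compared within a table. Each library summed to the same total, and the depth is unknown. The tables of set 1 and of sets 2 and 3 were normalized separately and were not tested together. Libraries of a group were least alike, across genes on the log2(TPM + 1) scale, at a correlation of 0.980 between NT replicates 1 and 4 of sets 2 and 3, and stood at 0.992 or more in the other groups. Those 2 control libraries lay at opposite ends of the first component of the within-group deviations in that table, which held 39.6% of their variance. Replication-dependent histone transcripts summed to 175.0 to 221.9 TPM in HUWE1 set 2 and 156.6 to 172.4 TPM in HUWE1 set 3. The shared controls gave 457.8 TPM in NT replicate 1 and 183.1 to 251.6 TPM in the other 3. These histone sums were 879 to 1083 TPM in HUWE1 set 1 and 928 to 1181 TPM in NT set 1. Mitochondrially encoded transcripts took 15.5% to 16.4% of the total in HUWE1 set 3, 16.3% to 17.5% in HUWE1 set 2 and 16.6% to 18.3% in their NT libraries. In set 1 they took 25.1% to 26.2% in HUWE1 libraries and 24.3% to 25.8% in NT libraries. All 6 genes listed as marks of the HEK293 line were expressed in every group, with summed levels of 265.9 to 277.2 TPM in HUWE1 set 1 and 345.7 to 358.1 TPM in NT set 1, and of 329.7 to 365.1 TPM in HUWE1 set 2, 310.9 to 313.5 TPM in HUWE1 set 3 and 341.5 to 417.0 TPM in NT set 2&3. Of other cell types, fibroblast markers summed to 19.9 to 21.6 TPM in HUWE1 set 1 and 17.0 to 18.8 TPM in NT set 1, and to at most 12.4 TPM in any library of sets 2 and 3. Keratinocyte markers summed to at most 0.310 TPM and leukocyte markers to at most 4.12 TPM in any library. The part of these composition differences in the results below was not tested.

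HUWE1 itself, on chromosome X from 53532096 to 53686729 (minus strand, GRCh38), was depleted in all 12 knockdown libraries, with no overlap between any knockdown group and its controls. It averaged 85.0 ± 1.72 TPM in HUWE1 set 1 and 157.2 ± 3.57 TPM in NT set 1 (SD, n = 4 each). The other table gave 94.6 ± 2.26 TPM in HUWE1 set 2 and 84.8 ± 5.42 TPM in HUWE1 set 3, against 163.3 ± 3.49 TPM in the shared NT libraries (SD, n = 4 each). The log2 fold changes of TPM + 1, with limma's adjusted p over all genes tested, were -0.88 ± 0.025 (SE, adjusted p = 1.69e-07), -0.78 ± 0.045 (7.45e-06) and -0.94 ± 0.045 (8.17e-07) in sets 1, 2 and 3. An exact two-sided permutation test over the libraries gave p = 0.0286 in each set, the smallest it can give.

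**Figure D1:**
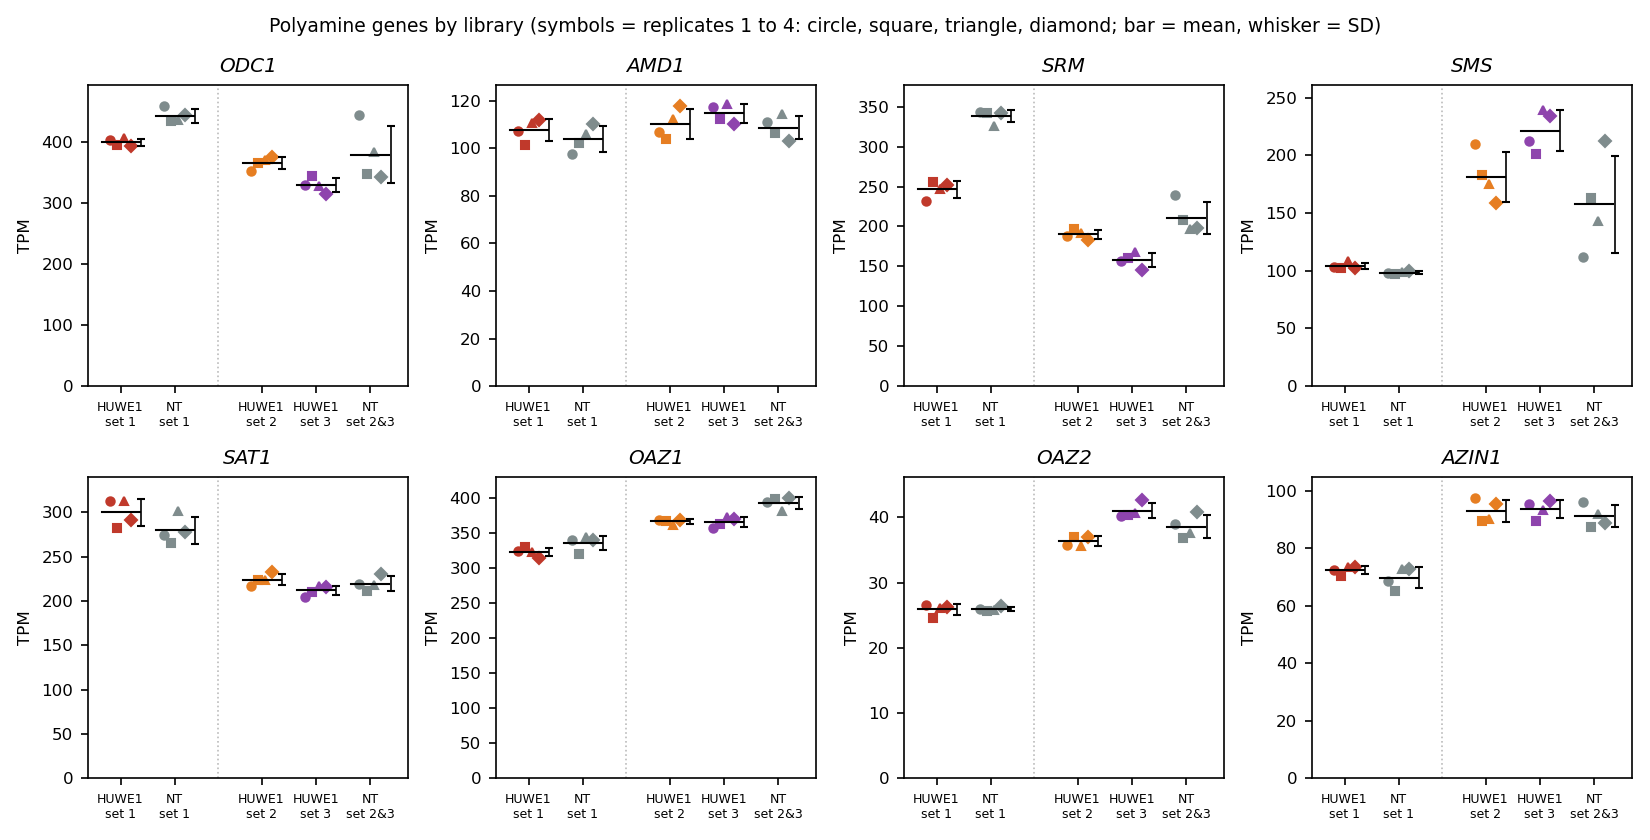
TPM of the 8 polyamine genes in every library, with HUWE1 siRNA groups to the left of their non-targeting (NT) group and a dotted line between the separately normalized tables. Bars are group means and whiskers are SD (n = 4 each), and SRM lies lower in all 4 HUWE1 set 1 libraries (231.7 to 255.2 TPM) than in all 4 NT set 1 libraries (326.4 to 343.1 TPM).

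A gene was called at a limma adjusted p under 0.05 over all genes tested, and the background is the share of all genes called. In set 1, 3 of the 8 genes were called, SMS higher and ODC1 and SRM lower, where 30.3% of all genes were called, 12.3% higher and 17.9% lower. The share of called genes that were higher in set 1 was 40.8%, and it was 50.5% with median-of-ratios scaling. In set 2, none of the 8 was called, where 0.0126% of all genes were, and 2 of the 8 had an unadjusted p under 0.05, as had 1401 of all 15860 genes. In set 3, 2 of the 8 were called, SMS higher and SRM lower, where 11.6% of all genes were called, 7.45% higher and 4.15% lower. An unadjusted limma p under 0.05 was found for 3 of the 8 in set 1 and for 4 of the 8 in set 3. Over all genes this held for 6734 of 16057 in set 1 and for 5470 of 15860 in set 3. The share of called genes that were higher in set 3 was 64.2%, and it was 48.9% with median-of-ratios scaling and 44.4% with TPM recomputed without mitochondrially encoded genes. The groups did not overlap for 3 of the 8 in set 1, for 1 in set 2 and for 2 in set 3, where the shares of all genes without overlap were 31.7%, 3.69% and 17.2%. The median log2 fold change of the 8 genes was 0.02, -0.01 and -0.0061 in sets 1, 2 and 3, and that of all genes tested was -0.01, -0.0041 and 0.0074. The choice of genes used these contrasts, so nothing is read from the counts.

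ODC1, the decarboxylase that opens the pathway, lies on chromosome 2 from 10439968 to 10448504 on the minus strand. It stood at 402.8, 395.4, 405.4 and 393.0 TPM in HUWE1 set 1, against 458.6, 433.2, 435.0 and 444.3 TPM in NT set 1. The highest knockdown library was below the lowest control, and the log2 fold change was -0.15 ± 0.024 (SE), a mean at 90.1% of that of the controls. In the second table it stood at 352.6, 365.5, 369.6 and 375.1 TPM in HUWE1 set 2 and at 329.2, 343.5, 328.2 and 315.2 TPM in HUWE1 set 3, against 443.0, 346.7, 382.5 and 341.8 TPM in NT set 2&3. The controls spread more widely than either knockdown group here, with NT replicate 1 far above the other 3, and both groups overlapped them. The log2 fold changes were -0.04 ± 0.069 in set 2 and -0.19 ± 0.069 in set 3 (SE), neither called. In set 2 the sign depended on the controls, since the fold change was 0.04 without NT replicate 1. In set 3 the fold change was -0.12 without NT replicate 1, not called, and -0.24 without NT replicate 4, the only alternative under which it was called.

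AMD1, which supplies the donor for both aminopropyl steps, lies on chromosome 6 from 110874770 to 110895713 on the plus strand. It stood at 107.3, 101.3, 110.6 and 111.9 TPM in HUWE1 set 1, against 97.6, 102.3, 105.8 and 110.1 TPM in NT set 1. AMD1 stood at 107.0, 103.8, 112.3 and 117.7 TPM in HUWE1 set 2 and at 117.5, 112.5, 118.5 and 110.4 TPM in HUWE1 set 3, against 111.2, 106.6, 114.2 and 102.9 TPM in NT set 2&3. Knockdown and control libraries overlapped in all 3 sets, and the log2 fold changes of 0.05 ± 0.042, 0.02 ± 0.048 and 0.08 ± 0.048 (SE) were not called. The annotation lists pseudogenes named after AMD1 and SRM, which are not in the tables under those symbols. Reads shared with such copies cannot be followed here, and copies under other names were not searched for.

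SRM, the spermidine synthase gene on chromosome 1 from 11054584 to 11060024 (minus strand), had the lowest fold change of the 8 genes in each of the 3 sets. It stood at 231.7, 255.2, 246.8 and 251.9 TPM in HUWE1 set 1, against 343.1, 342.2, 326.4 and 342.2 TPM in NT set 1. Every knockdown library was below every control, by a log2 fold change of -0.46 ± 0.033 (SE), a mean at 72.8% of that of the controls. Levels of SRM were 188.7, 196.5, 192.4 and 183.4 TPM in HUWE1 set 2 and 156.8, 160.8, 168.2 and 145.9 TPM in HUWE1 set 3, against 239.0, 208.0, 196.4 and 198.0 TPM in NT set 2&3. All of set 3 was below all controls, while in set 2 replicate 2 reached the lowest control. The log2 fold change was -0.14 ± 0.063 (SE) in set 2, not called, and -0.41 ± 0.063 (SE) in set 3, called, a mean at 75.1% of that of the controls. Without NT replicate 1, its highest control, the fold change was -0.08 in set 2 and -0.35 in set 3. In bulk RNA of this kind, fewer cells with the transcript and less transcript per cell cannot be told apart.

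SMS, the spermine synthase gene on chromosome X from 21940573 to 21994835 (plus strand), ran the other way from SRM in the called sets. It stood at 103.1, 102.4, 108.2 and 102.2 TPM in HUWE1 set 1, against 98.4, 97.1, 98.8 and 99.5 TPM in NT set 1. The groups did not overlap, but the gap was small, at a log2 fold change of 0.08 ± 0.025 (SE). The call of set 1 was lost without a filter and on leaving out any 1 library other than HUWE1 replicate 2. SMS stood at 210.1, 183.2, 174.7 and 158.3 TPM in HUWE1 set 2 and at 212.1, 201.0, 238.9 and 234.1 TPM in HUWE1 set 3, against 111.9, 162.8, 143.2 and 212.1 TPM in NT set 2&3. The controls ranged so widely that NT replicate 4 was level with the second-lowest library of set 3, and NT replicate 1 was the lowest of all 12 libraries. The log2 fold change was 0.23 ± 0.153 (SE) in set 2, not called, and 0.52 ± 0.153 (SE) in set 3, called, a mean at 140.7% of that of the controls. These same 2 controls, the lowest and the highest for SMS, were the ones at the ends of the within-group component, and the part of that component in the SMS values was not tested. In set 2 the fold change was 0.08 without NT replicate 1 and 0.39 without NT replicate 4. Without NT replicate 1 the set 3 fold change was 0.37 and not called, without NT replicate 4 it was 0.68 and called, and it was called in 4 of 16 alternatives in all. Without both of these libraries, a choice made after seeing the data, it was 0.53 ± 0.103 (SE) and called.

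SAT1, the acetyltransferase gene on chromosome X from 23783173 to 23786226 (plus strand), stood at 313.1, 282.5, 312.5 and 291.5 TPM in HUWE1 set 1, against 274.5, 265.4, 301.3 and 277.3 TPM in NT set 1. For sets 2 and 3 it stood at 217.2, 223.3, 223.5 and 232.5 TPM in HUWE1 set 2 and at 204.7, 210.0, 216.5 and 215.9 TPM in HUWE1 set 3, against 219.3, 210.8, 217.5 and 230.6 TPM in NT set 2&3. Knockdown and control ranges overlapped in all 3 sets. The log2 fold changes of 0.10 ± 0.045, 0.03 ± 0.038 and -0.05 ± 0.038 (SE) were not called, and SAT1 in set 1 was called at 0.14 without NT replicate 3.

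OAZ1, the main antizyme transcript by level, lies on chromosome 19 from 2269509 to 2273490 on the plus strand. It stood at 323.7, 329.1, 323.1 and 314.4 TPM in HUWE1 set 1, against 339.0, 320.2, 343.5 and 339.3 TPM in NT set 1. Only NT replicate 2 fell within the knockdown range. In the second table it stood at 368.3, 367.1, 360.7 and 367.6 TPM in HUWE1 set 2 and at 357.0, 362.8, 372.7 and 369.1 TPM in HUWE1 set 3, against 393.7, 397.3, 380.5 and 398.9 TPM in NT set 2&3. All 8 knockdown libraries of that table were below all 4 controls. OAZ1 had log2 fold changes of -0.06 ± 0.027, -0.10 ± 0.032 and -0.10 ± 0.032 (SE) in sets 1, 2 and 3, none of them called. OAZ1 passed the threshold on leaving out NT replicate 2 in set 1, at -0.08, and NT replicate 4 in set 3, at -0.10, and also in set 3 with a filter at a mean TPM of 5 and, at -0.13, with TPM recomputed without mitochondrially encoded genes.

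OAZ2, a second antizyme gene on chromosome 15 from 64687573 to 64703281 (minus strand), had the lowest level of the 8. It stood at 26.6, 24.6, 26.1 and 26.3 TPM in HUWE1 set 1, against 25.9, 25.7, 25.8 and 26.4 TPM in NT set 1. The means were level and the log2 fold change of -0.0025 ± 0.031 (SE) turned to 0.02 with median-of-ratios scaling. OAZ2 stood at 35.8, 37.0, 35.6 and 37.0 TPM in HUWE1 set 2 and at 40.3, 40.4, 40.6 and 42.7 TPM in HUWE1 set 3, against 39.0, 36.9, 37.6 and 40.9 TPM in NT set 2&3. All of set 2 lay below the control mean of 38.6 TPM and all of set 3 above it, and both overlapped the control range. The log2 fold changes were -0.08 ± 0.041 in set 2 and 0.09 ± 0.041 in set 3 (SE), neither called. OAZ2 was called in set 3 at 0.11 without NT replicate 4 and at 0.13 without NT replicates 1 and 4.

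AZIN1, the antizyme inhibitor gene on chromosome 8 from 102826357 to 102893864 (minus strand), stood at 72.3, 70.4, 73.6 and 73.6 TPM in HUWE1 set 1, against 68.6, 65.2, 72.7 and 72.8 TPM in NT set 1. AZIN1 stood at 97.4, 89.5, 90.2 and 95.4 TPM in HUWE1 set 2 and at 95.5, 89.6, 93.3 and 96.6 TPM in HUWE1 set 3, against 96.3, 87.5, 92.0 and 89.0 TPM in NT set 2&3. Knockdown and control ranges overlapped in all 3 sets. The log2 fold changes of 0.05 ± 0.037, 0.03 ± 0.044 and 0.04 ± 0.044 (SE) were not called, nor were they called under any alternative.

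**Figure D2:**
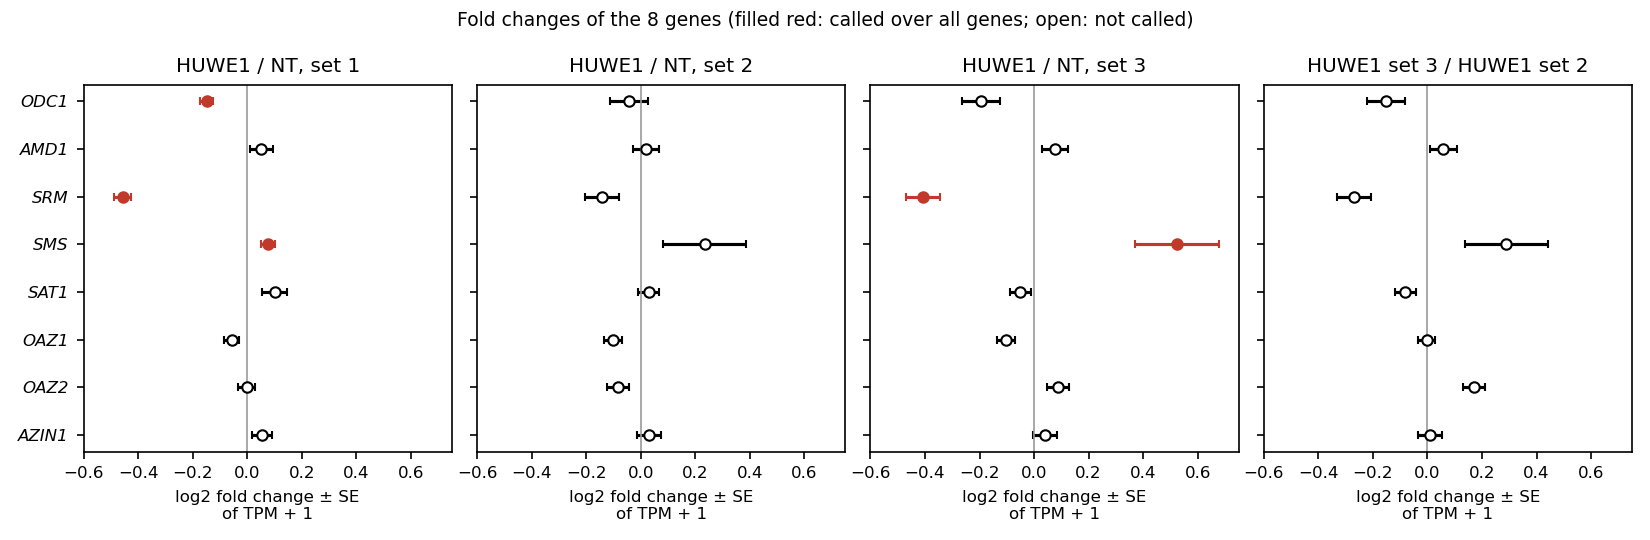
Log2 fold change of TPM + 1 with its SE for the 8 genes in each HUWE1 siRNA set against its NT libraries and, in the rightmost panel, in HUWE1 set 3 against HUWE1 set 2. Filled red points were called over all genes tested, and SRM lies at -0.46 in set 1, at -0.14 in set 2 and at -0.41 in set 3.

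The order of levels differed between the control groups of the separately normalized tables, and is given as a description. In NT set 1, ODC1 was highest at 442.8 ± 11.6 TPM (SD, n = 4), above SRM at 338.5 ± 8.07 TPM and OAZ1 at 335.5 ± 10.4 TPM, whose ranges overlapped. SAT1 followed at 279.6 ± 15.3 TPM, then AMD1 at 104.0 ± 5.32 TPM and SMS at 98.5 ± 0.994 TPM with overlapping ranges, then AZIN1 at 69.8 ± 3.68 TPM and OAZ2 at 25.9 ± 0.291 TPM. In NT set 2&3, OAZ1 at 392.6 ± 8.38 TPM and ODC1 at 378.5 ± 46.7 TPM led with overlapping ranges (SD, n = 4). SAT1 at 219.6 ± 8.25 TPM, SRM at 210.3 ± 19.8 TPM, SMS at 157.5 ± 42.0 TPM and AMD1 at 108.7 ± 4.97 TPM followed, and each overlapped the next in range. AZIN1 at 91.2 ± 3.87 TPM and OAZ2 at 38.6 ± 1.74 TPM were lowest in this table too.

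HUWE1 set 3 was also set directly against HUWE1 set 2. For each gene this difference equals the set 3 fold change minus the set 2 fold change, both of which the choice of genes used, so it too is a description. None of the 8 genes was called, where 0.517% of all genes were, and 3 of the 8 had an unadjusted p under 0.05, as had 2507 of all 15860 genes. The groups did not overlap for 4 of the 8, ODC1, SRM, SAT1 and OAZ2, where 13.2% of all genes did not overlap. SRM was lower in set 3, at 157.9 ± 9.29 TPM, than in set 2, at 190.3 ± 5.59 TPM (SD, n = 4 each), with a log2 difference of -0.27 ± 0.063 (SE). OAZ2 was higher in set 3, at 41.0 ± 1.14 TPM, than in set 2, at 36.4 ± 0.740 TPM (SD, n = 4 each), with a log2 difference of 0.17 ± 0.041 (SE). Both differences separated all 4 libraries of one group from all 4 of the other, and neither gene was called in the model of all 12 libraries, while both were with only the 2 groups in the fit. ODC1 averaged 329.0 ± 11.6 TPM in set 3 and 365.7 ± 9.61 TPM in set 2 (log2 difference -0.15 ± 0.069 SE), and SAT1 averaged 211.8 ± 5.56 TPM in set 3 and 224.2 ± 6.31 TPM in set 2 (-0.08 ± 0.038 SE). SMS, at 221.5 ± 18.0 TPM in set 3 and 181.6 ± 21.7 TPM in set 2 (SD, n = 4 each), had overlapping libraries and a log2 difference of 0.29 ± 0.153 (SE). AMD1, AZIN1 and OAZ1 overlapped too, at log2 differences of 0.06, 0.01 and -0.0023. HUWE1 RNA itself was at 84.8 ± 5.42 TPM in set 3 and 94.6 ± 2.26 TPM in set 2.

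Ratios of genes within a library do not depend on how the library was scaled, and are given as a description, since the same TPM values chose the genes. The SRM to SMS ratio compares the genes of the consecutive aminopropyl steps. It was 2.25, 2.49, 2.28 and 2.46 in HUWE1 set 1, against 3.49, 3.52, 3.30 and 3.44 in NT set 1. The lowest control was above the highest knockdown library, and the mean ratio in knockdown was 69.0% of that in controls. For sets 2 and 3 the ratio was 0.898, 1.07, 1.10 and 1.16 in HUWE1 set 2 and 0.739, 0.800, 0.704 and 0.623 in HUWE1 set 3, against 2.14, 1.28, 1.37 and 0.934 in NT set 2&3. All of set 3 lay below all controls and below all of set 2, while set 2 overlapped the controls. The mean ratio was 50.1% of that in controls in set 3 and 74.0% in set 2. Both percentages rest on a control mean raised by NT replicate 1, at 2.14, the highest control for SRM and the lowest for SMS.

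The ratio of ODC1 to AMD1, the genes of the 2 decarboxylases, averaged 3.71 ± 0.164 in HUWE1 set 1 and 4.27 ± 0.298 in NT set 1 (SD, n = 4 each), without overlap. It averaged 3.32 ± 0.142 in HUWE1 set 2 and 2.87 ± 0.128 in HUWE1 set 3, against 3.48 ± 0.342 in NT set 2&3 (SD, n = 4 each). Set 3 lay below every control and every set 2 library, and set 2 overlapped the controls. The ODC1 to OAZ1 ratio, of the enzyme's transcript to that of its antizyme, averaged 1.24 ± 0.0245 in HUWE1 set 1 and 1.32 ± 0.0414 in NT set 1 (SD, n = 4 each), again without overlap, and overlapped the controls in sets 2 and 3. The AZIN1 to OAZ1 ratio lay above all controls in set 3, where its mean was 110.4% of theirs, and overlapped them in sets 1 and 2. The OAZ1 to OAZ2 ratio averaged 8.91 ± 0.220 in HUWE1 set 3 and 10.1 ± 0.171 in HUWE1 set 2, against 10.2 ± 0.421 in NT set 2&3 (SD, n = 4 each). Set 3 was below every other library of its table, and in set 1 the ratio overlapped, at a mean of 12.5 in HUWE1 libraries and 12.9 in NT libraries.

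**Figure D3:**
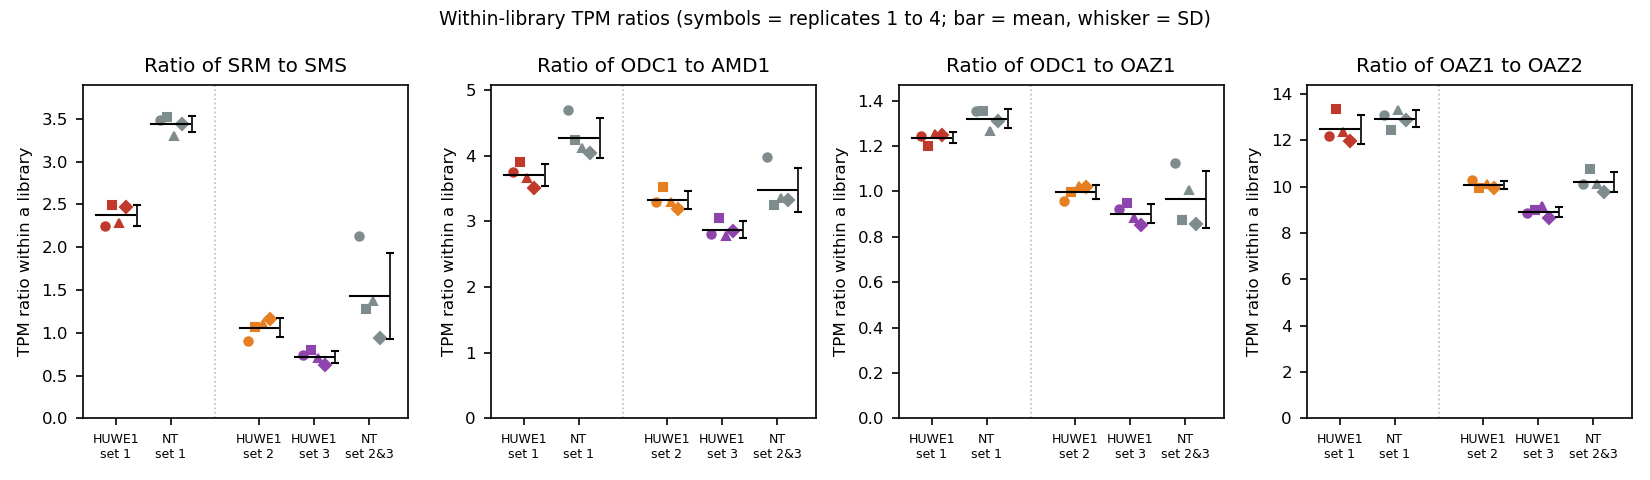
Ratios of the TPM of 2 genes within each library, HUWE1 siRNA groups to the left of their NT group, with means as bars and SD as whiskers (n = 4 each). The SRM to SMS ratio is 2.25 to 2.49 in HUWE1 set 1, below the 3.30 to 3.52 of NT set 1, and 0.623 to 0.800 in HUWE1 set 3, below the 0.934 to 2.14 of NT set 2&3.

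A list of 27 other polyamine genes covers precursor supply and methylthioadenosine salvage, back-conversion, further antizyme genes, hypusine formation and transport. The list was not picked for how its genes moved, but it was drawn up with earlier results of these data known, so the adjusted p-values given for its genes are not independent support. All 27 were found, and 23 were tested. ARG1, SATL1, ATP13A4 and SLC12A8 did not pass the filter on low values. In set 1, 5 of the 23 were called, AZIN2 higher and ARG2, ENOPH1, OAZ3 and SLC3A2 lower, against the 30.3% of all genes given above. In set 2 none was called with limma, and none had an unadjusted p under 0.05. In set 3, ARG2 was called higher and ENOPH1 lower, against 11.6% of all genes, and 11 of the 23 had an unadjusted p under 0.05, as had 5470 of all 15860 genes. The median log2 fold change of the 23 was -0.04, -0.01 and 0.05 in sets 1, 2 and 3, beside the medians of all genes given above. In set 3 against set 2 none was called with limma, 6 had an unadjusted p under 0.05, against the 2507 of 15860 above, and the lowest adjusted p was 0.0752, for ENOPH1.

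ENOPH1, an enzyme of the salvage path that recycles the methylthioadenosine left over by SRM and SMS, was called lower in sets 1 and 3. It stood at 76.5, 79.6, 77.3 and 81.0 TPM in HUWE1 set 1, against 87.1, 93.3, 98.9 and 101.4 TPM in NT set 1. All knockdown libraries were below all controls (log2 fold change -0.27 ± 0.045 SE, limma adjusted p = 0.00193). In the second table it stood at 122.1, 127.2, 128.4 and 123.3 TPM in HUWE1 set 2 and at 111.3, 115.1, 108.9 and 114.2 TPM in HUWE1 set 3, against 127.5, 121.8, 125.7 and 129.8 TPM in NT set 2&3. Set 3 was below all controls (-0.17 ± 0.035 SE, limma adjusted p = 0.0201) and set 2 overlapped them (-0.01, limma adjusted p = 0.922). The set 3 call was lost with only the 2 groups in the fit and on leaving out HUWE1 replicate 1, 3 or 4 or NT replicate 3.

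ARG2, the mitochondrial arginase that makes ornithine, was called in opposite directions. It averaged 40.9 ± 2.58 TPM in HUWE1 set 1 and 46.2 ± 0.279 TPM in NT set 1 (log2 fold change -0.17 ± 0.041 SE, limma adjusted p = 0.0104). It averaged 51.3 ± 4.84 TPM in HUWE1 set 2 and 59.0 ± 3.68 TPM in HUWE1 set 3, against 49.2 ± 4.43 TPM in NT set 2&3. The fold change was 0.06 in set 2 (limma adjusted p = 0.784) and 0.26 ± 0.077 SE in set 3 (limma adjusted p = 0.0470). Set 1 did not overlap its controls, whereas the lowest library of set 3, at 53.9 TPM, was below the highest control, at 55.5 TPM. The set 3 call was lost without a filter, with median-of-ratios scaling, without mitochondrially encoded genes, with only the 2 groups in the fit and on leaving out any 1 library of those groups other than NT replicate 4. ARG2 overlaps VTI1B on the opposite strand, and whether the counting used strand was not given in the sources used here.

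OAZ3, an antizyme gene known for expression in the testis, was low throughout, at 3.19 ± 0.267 TPM in HUWE1 set 1 and 4.98 ± 0.478 TPM in NT set 1 (SD, n = 4 each, log2 fold change -0.51 ± 0.074 SE, limma adjusted p = 9.78e-04). It overlaps MRPL9, which is far more abundant, and TDRKH, both on the opposite strand, so its level is uncertain. AZIN2, a second antizyme inhibitor gene, averaged 3.76 ± 0.151 TPM in HUWE1 set 1 and 3.09 ± 0.0985 TPM in NT set 1 (0.22 ± 0.055 SE, limma adjusted p = 0.0138). SLC3A2, the heavy chain shared by several amino acid transporters and linked to polyamine transport, averaged 305.4 ± 10.8 TPM in HUWE1 set 1 and 346.4 ± 15.0 TPM in NT set 1 (-0.18 ± 0.036 SE, limma adjusted p = 0.00491). None of these 3 was called in sets 2 or 3, where each had the same sign as in set 1. OAZ3 fold changes there were -0.31 ± 0.188 and -0.38 ± 0.188 (SE, limma adjusted p = 0.616 and 0.165). Those of AZIN2 were 0.21 ± 0.107 and 0.26 ± 0.107 (SE, limma adjusted p = 0.587 and 0.113). SLC3A2 fold changes were -0.09 and -0.18 (limma adjusted p = 0.820 and 0.360). The SLC3A2 level of NT replicate 1, at 297.0 TPM, lay far above the other controls, at 169.5 to 204.2 TPM.

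Among the genes of the list that were never called, the most abundant were MAT2A, which makes S-adenosylmethionine, EIF5A, the translation factor that carries hypusine made out of spermidine, and DHPS, which carries out the first step of that modification. MAT2A averaged 544.0 TPM in HUWE1 set 1 and 555.8 TPM in NT set 1 (log2 fold change -0.03, limma adjusted p = 0.379), and EIF5A 352.2 TPM in HUWE1 set 1 and 363.1 TPM in NT set 1 (-0.04, limma adjusted p = 0.263). DHPS averaged 79.1 TPM in HUWE1 set 1 and 75.1 TPM in NT set 1 (0.07, limma adjusted p = 0.187). In sets 2 and 3 the log2 fold changes of these 3 genes lay between -0.06 and 0.09, with limma adjusted p of 0.138 or more. A p that misses the threshold does not show that these levels were the same.

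**Figure D4:**
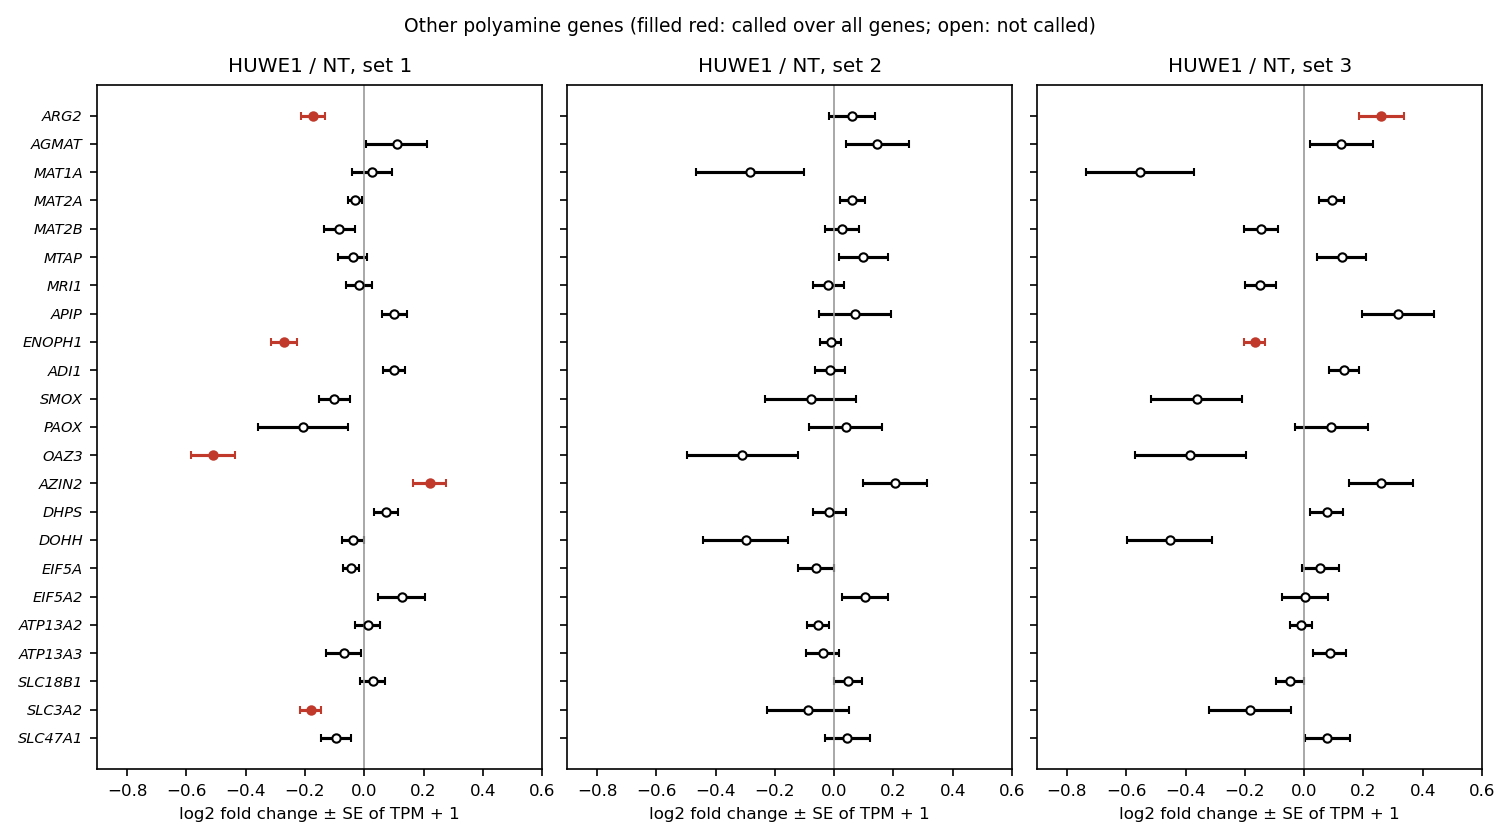
Log2 fold change of TPM + 1 with its SE for the 23 tested genes of the list of other polyamine genes, in each HUWE1 siRNA set against its NT libraries. Filled red points were called over all genes tested, 5 in set 1, 0 in set 2 and 2 in set 3.

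Genes with a pattern most like SRM or ODC1 were named by the root mean square difference of log2(TPM + 1) values, centred on the mean of the controls of their own table, over all 20 libraries and among 11467 genes. For SRM the nearest were DCHS1 (0.0799), NR2C2AP (0.0882), MTFP1 (0.0945), SKP2 (0.0964) and QTRT1 (0.0970), where the median difference over all genes was 0.304. The log2 fold changes of these 5 lay between -0.45 and -0.31 in set 1, between -0.23 and -0.06 in set 2 and between -0.44 and -0.31 in set 3. These genes were picked for closeness to SRM in the same libraries, so fold changes like those of SRM were fixed by the choice. For ODC1 the nearest were RIOX2 (0.0400), SNHG17 (0.0407), ZNF70 (0.0432), PTDSS1 (0.0445) and PPIF (0.0472), where the median over all genes was 0.165. The log2 fold changes of the 5 nearest to ODC1 lay between -0.19 and -0.13 in set 1. They lay between -0.07 and -0.0094 in set 2 and between -0.25 and -0.15 in set 3. Here too, fold changes like those of ODC1 were fixed by the choice.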

How the data were processed

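The authors deposited TPM values per gene symbol in 2 tables, one of 8 libraries (set 1) and one of 12 (sets 2 and 3). Libraries were made with a stranded mRNA kit and sequenced on an Illumina instrument, per the labels' protocols. Per the submitters' processing notes, hg38 was the build, and which aligner, counter or gene annotation was used was not given in the sources used here. Columns without a sample numbered 0. Depth is unknown, so no counting interval was computed.

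Genes reaching a TPM of 1 in 4 or more libraries of a table entered limma 3.58.1 (trended variance, R 4.3.3) as log2(TPM + 1), with Benjamini-Hochberg adjustment over all genes and a threshold of 0.05. The fold change understates the change of low genes. The second table was 1 model of 12 libraries. The procedure was run on simulated data with noise drawn independently for each gene and library. Those data hold no within-group component such as that of the second table, so calls made in its presence were not checked. Exact permutation tests used scipy 1.17.1. Gene positions are from GENCODE release 29.

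The 8 genes and the lists were chosen with earlier results of these data known. Named genes are the 8, HUWE1, every other polyamine gene called in any comparison, up to 3 uncalled ones with the highest mean TPM, and the 5 genes nearest in pattern to ODC1 and SRM with a mean TPM of 5 or more. Each result was recomputed with a replicate block, with median-of-ratios scaling, with a pseudocount of 0.1, without a filter or with one at a mean TPM of 5, with TPM recomputed without mitochondrially encoded genes, with only the 2 groups in the fit, without each library in turn, and, chosen after seeing the data, without 2 control libraries. Same-numbered libraries deviated together with a correlation of 0.052 or less in set 1, so the numbers were not taken to pair samples.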

Additional observations from a re-analysis of the deposited data

Results flagged for a closer look

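In 5 of 110 groups of 4 libraries, 1 library lay apart from the other 3 by Dixon's test, and chance alone would give about 5%. SRM in NT set 1 was lowest in replicate 3, at 326.4 TPM, with the other 3 at 342.2 to 343.1 TPM. SMS in HUWE1 set 1 was highest in replicate 3, at 108.2 TPM, with the others at 102.2 to 103.1 TPM. OAZ1 in HUWE1 set 2 was lowest in replicate 3, at 360.75 TPM, with the others at 367.1 to 368.3 TPM. OAZ2 in HUWE1 set 3 was highest in replicate 4, at 42.7 TPM, with the others at 40.3 to 40.6 TPM. The ODC1 to AMD1 ratio in NT set 2&3 was highest in replicate 1, at 3.99, with the others at 3.25 to 3.35.

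For SAT1 and ARG2, all 4 knockdown libraries lay on one side of the control mean in set 1 and all 4 on the other side in set 3. SAT1 had a log2 fold change of 0.10 in set 1 and -0.05 in set 3, and ARG2 of -0.17 in set 1 and 0.26 in set 3. SAT1 overlapped its controls and was not called in either set. The share of all genes that lay on opposite sides in this way was not computed, so nothing is read from it. The sets are in separately normalized tables, and the difference was not tested.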

How the results depend on the processing

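Of 488 alternative values of the fold changes of the 8 genes, 440 kept their direction and their side of the threshold, 21 lost a call, 11 gained one and 16 changed sign. HUWE1 kept its call in all 46. The 8 genes were chosen on the contrasts these calls come from, so how often a call was kept is a description.

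The 2 of the 8 genes called in set 3 became 1 without a filter, with median-of-ratios scaling, with the replicate block and with only the 2 groups compared, and 1 to 5 on leaving out 1 library (5 without NT replicate 4). Of 16 alternatives in set 3, SRM was called in 16, SMS in 4 and OAZ1 in 3, so such a count need not stand for the same genes. In set 3 against set 2, the 0 called became 2 with only the 2 groups compared. Of the other polyamine genes, the 5 called in set 1 became 3 at a mean TPM of 5 or more, where OAZ3 and AZIN2 are not tested. The 2 called in set 3 became 1 without a filter, without mitochondrially encoded genes and with the replicate block, 0 with only the 2 groups compared, 0 to 10 on leaving out 1 library (10 without NT replicate 4), and 6 without NT replicates 1 and 4. Over all genes, the 1839 calls of set 3 became 698 without a filter, 693 with the block, 360 with only the 2 groups, 163 to 5878 on leaving out 1 library and 3245 without NT replicates 1 and 4. The 82 calls of set 3 against set 2 became 42 without a filter, 17 with the block, 335 with only the 2 groups and 20 to 68 on leaving out 1 library. The 2 calls of set 2 became 1 to 6. The causes were not tested.

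Signs turned for fold changes near 0. OAZ2 in set 1 was 0.0168 with median-of-ratios scaling, 0.0057 without mitochondrially encoded genes and -0.0150 to 0.0204 on leaving out 1 library. AMD1 in set 2 was -0.0036 without NT replicates 1 and 4 and -0.0132 to 0.0469 on leaving out 1 library. ODC1 in set 2 was 0.0057 without both and -0.0883 to 0.0360 on leaving out 1. In set 3 against set 2, AZIN1 was -0.0068 without mitochondrially encoded genes and -0.0088 to 0.0315 on leaving out 1 library, and OAZ1 was -0.0119 to 0.0088. The replicate block left fold changes as they were, ended the calls of SMS in sets 1 and 3 and of ARG2 in set 3, and called SAT1 in set 1, at 0.10. Replicate numbers shared between groups were not taken to pair the samples, since deviations of same-numbered libraries correlated between -0.48 and 0.41 in the second table. With 4 libraries a group, such correlations cannot exclude a pairing. The share of called genes that were higher in set 3 against set 2 was 59.8%, 50.0% with median-of-ratios scaling and 49.3% without mitochondrially encoded genes. No scaling moved the median of all genes by over 0.1. Depth is unknown, so the 4 libraries a group and the SE they give set the precision.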
